A study of Mus musculus with 21 samples.

Results

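The keratin gene family was examined in the brain, liver and skin of newborn mice. Its members were the gene symbols made of Krt and digits alone, 48 symbols, together with Krt6a and Krt6b, which belong to the stress keratins but end in a letter. This gave 50 of the 24391 genes in the count tables. The mice were labelled C57BL/6 (C57BL/6J in the study's methods) and P0, that is postnatal day 0. Each tissue had 2 KI libraries (KI 1 and KI 2), labelled Jak1 KI +/-, and 5 WT libraries (WT 1 to WT 5). The KI allele holds H595D in the kinase Jak1 with the silent changes I596I and Y597Y, all heterozygous. It was introduced with CRISPR-Cas9 and is not driven by a Cre or a tissue promoter, and the study obtained KI pups by mating a mosaic male with wild-type mice. Whether the sequenced pups shared a litter is not given in the sources used here. The WT mice were wild-type for Jak1, and no treatment is named for either group.

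Keratins are the intermediate filaments of epithelial cells. A type I and a type II keratin pair into a heterodimer, and the pairs differ between cell types. Keratinocytes of the basal layer make Krt5 with Krt14 and switch to Krt1 with Krt10 as they move up. Krt6a, Krt6b, Krt16 and Krt17 are the stress keratins, held low in resting epidermis between the hairs and raised in wounded or inflamed epidermis, while Krt17 is also made in hair follicles. Krt8 and Krt18 are the keratins of simple epithelia, among them hepatocytes, and Krt7 and Krt19 join them in bile ducts. Other members build the inner root sheath, the companion layer and the hair shaft.

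The 21 libraries held 26549326 to 38388133 counts on genes. Levels are given as CPM, counts scaled to the total on genes with TMM factors within the tissue, and a comparison was called when the Benjamini-Hochberg adjusted p of edgeR's quasi-likelihood test over all tested genes was under 0.1. The tissues matched their labels. Summed hepatocyte markers reached 143511 to 176780 CPM in the liver, and summed neuron markers 5157 to 7575 CPM in the brain. In the skin, 5 dermal fibroblast markers summed to 57808 to 92782 CPM and 6 skeletal muscle markers to 5349 to 23124 CPM. The skin libraries differed most in epidermal RNA. The sum of 9 epidermal markers that are not keratins was 3958 and 296 CPM in KI 1 and KI 2, and 2855, 1419, 2227, 5241 and 476 CPM in WT 1 to WT 5. None of the 9 was at 0 throughout the skin. KI 2 and WT 5 were poor in epidermis, KI 1 and WT 4 were rich, and the genotypes overlapped. According to the study's methods, RNA integrity was lower in the skin than in the liver.

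The family lies in 2 clusters. Of the 48 members matched to the NCBIM37 (mm9) annotation, 25 type I genes lie on chromosome 11, 22 type II genes on chromosome 15, and Krt18, a type I gene, beside its partner Krt8 on chromosome 15. Krt72 and Krt85 were not matched by symbol. Neighbours in a cluster can share coding sequence, which bears on how reads were assigned. Krt6a (chr15:101520363-101524738) and Krt6b (chr15:101506465-101510720), both on the minus strand, were identical at 1625 of 1662 aligned coding bases (97.8%). Of all 75-base stretches of their exons, 40.6% of those of Krt6a and 39.1% of those of Krt6b occurred unchanged in another gene. The study's reads were paired and longer than 75 bases, so the share of reads that match more than 1 place may be smaller and was not measured. The counts tally such alignments apart from genes, so both genes may be undercounted. The coding stretch below, in exon 4 of 9 in each gene, is shown because it holds 12 differences, by which reads of the 2 genes can be told apart. Capitals mark the bases that differ.
Krt6a, chr15:101522915-101523004: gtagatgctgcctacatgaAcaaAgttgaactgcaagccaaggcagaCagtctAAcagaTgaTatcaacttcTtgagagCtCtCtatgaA
Krt6b, chr15:101508734-101508823: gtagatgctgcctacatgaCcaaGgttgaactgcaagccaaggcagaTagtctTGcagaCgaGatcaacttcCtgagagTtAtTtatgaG

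The type I stress keratins were easier to separate. Krt16 shared 86.4% of its aligned coding bases with the basal keratin Krt14, and 6.19% of its 75-base stretches occurred in Krt14. Krt17 shared none of its stretches with another gene. The same 90 bases of exon 5 of 8 are shown for these 3 genes, all on the minus strand, with capitals at the 33 positions where they are not all alike.
Krt16, chr11:100108437-100108526: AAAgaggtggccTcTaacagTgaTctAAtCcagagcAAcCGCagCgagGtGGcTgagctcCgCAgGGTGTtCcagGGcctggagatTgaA
Krt14, chr11:100065759-100065848: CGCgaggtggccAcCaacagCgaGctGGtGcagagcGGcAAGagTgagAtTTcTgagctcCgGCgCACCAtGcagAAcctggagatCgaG
Krt17, chr11:100119078-100119167: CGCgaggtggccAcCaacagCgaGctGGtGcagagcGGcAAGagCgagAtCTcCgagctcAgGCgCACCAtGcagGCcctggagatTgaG
All sequences are reference sequence of NCBIM37 with the GENCODE vM1 gene models.

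In the skin, 49 of the 50 members were counted in at least 1 library, and Krt39, a hair keratin, was at 0 in all 7. A mean of at least 1 CPM was reached by 36 members and of at least 100 CPM by 7. Keratins made up 1.36% and 0.121% of all counts in KI 1 and KI 2, and 0.985%, 0.481%, 0.529%, 1.58% and 0.206% in WT 1 to WT 5. Per kb of gene model, WT skin held most of Krt1 and Krt10, at a mean of 945 and 724 CPM per kb, followed by Krt5 (649), Krt14 (411), Krt17 (275) and Krt15 (253). The spread between the WT libraries exceeded the steps between neighbours in this order. On this scale type II keratins summed to 0.743 to 1.08 times the type I keratins in the 7 skin libraries, so the types were close to balance in libraries whose keratin totals differed over 10-fold.

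**Figure D1:**
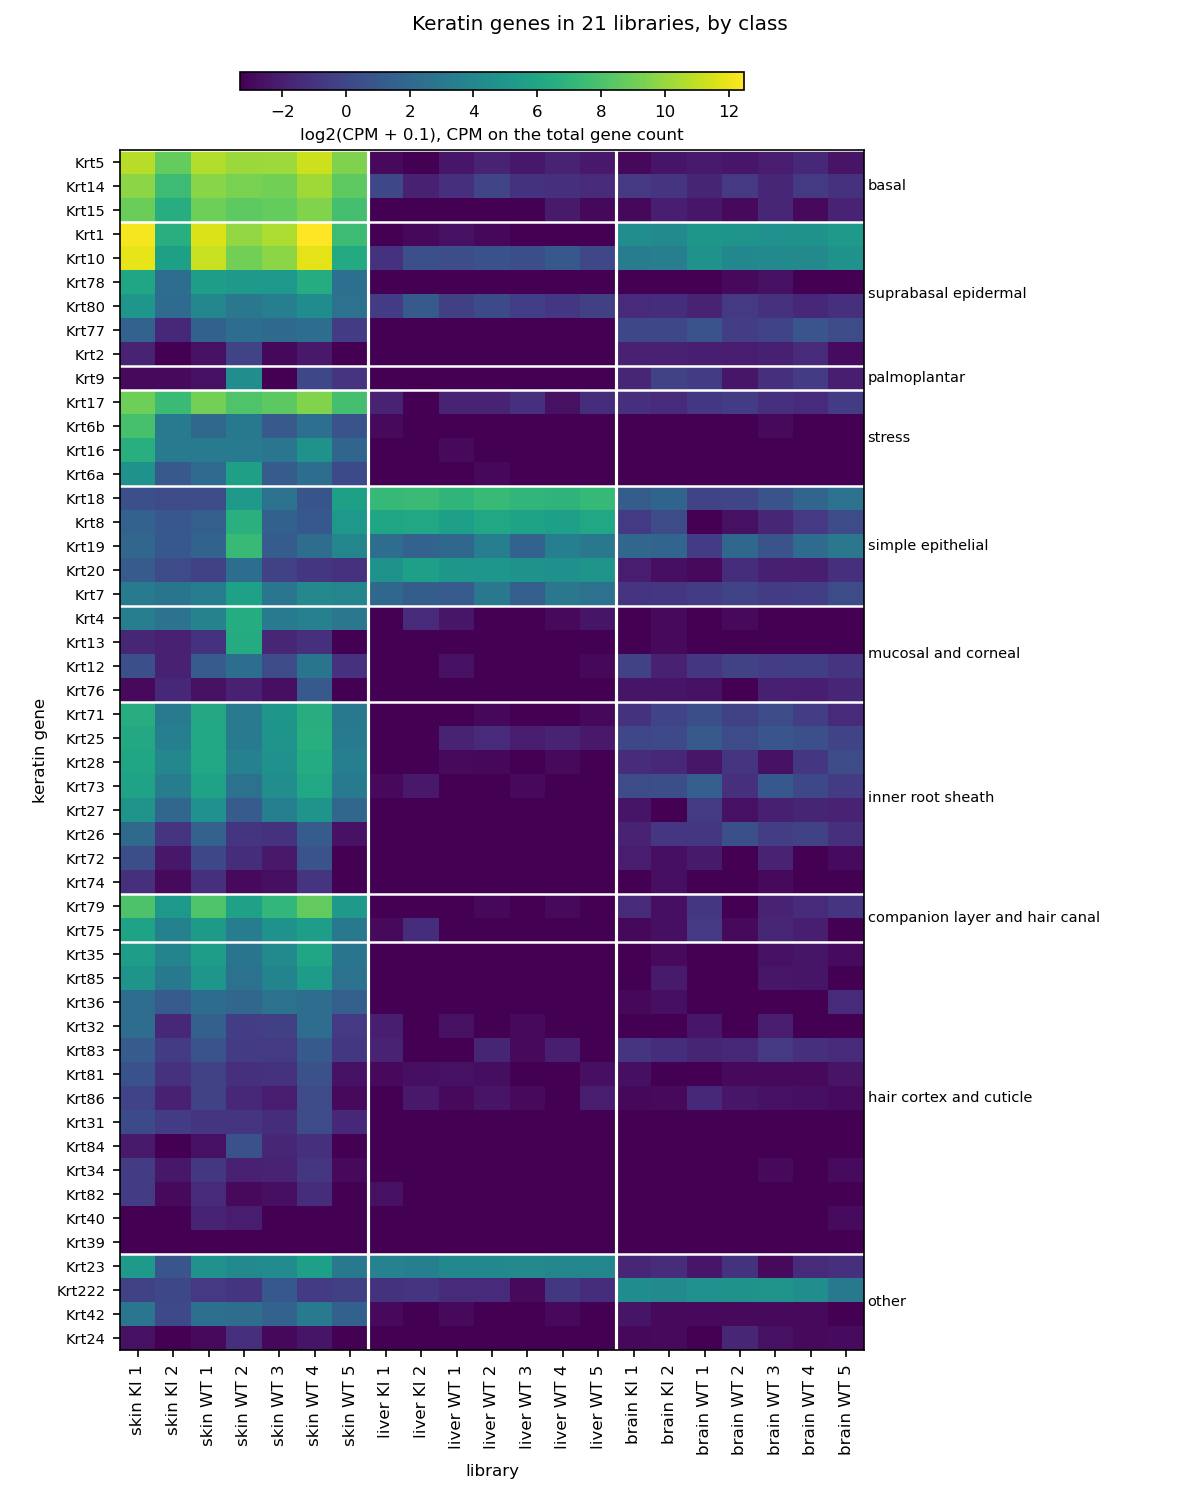
Level of each of the 50 keratin genes (rows, grouped by class) in each of the 21 libraries (columns), as log2 of CPM on the total gene count with 0.1 added. Skin holds nearly all classes, liver holds Krt18, Krt8, Krt20 and Krt23, and brain holds Krt1, Krt10 and Krt222.

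The basal keratins varied less than the suprabasal ones. Krt5 stood at 1776 and 442 CPM in KI 1 and KI 2 and at 1605, 1029, 1222, 2549.9 and 700.04 CPM in WT 1 to WT 5. Krt14 stood at 849 and 185 CPM in KI 1 and KI 2 and at 807, 592, 590.1, 1235 and 389.6 CPM in WT 1 to WT 5. Krt15, a further basal keratin that also marks follicle cells, stood at 505 and 93.5 CPM in KI 1 and KI 2 and at 505, 350.1, 439, 738 and 230.4 CPM in WT 1 to WT 5. In all 3 genes WT 4 was highest and KI 2 lowest, and KI 1 fell within the WT range. The pair kept its ratio: 1000 reads on Krt14 came with 1739 to 2389 reads on Krt5 in the 7 libraries.

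The suprabasal pair spanned a wide range. Krt1 stood at 5026 and 102 CPM in KI 1 and KI 2 and at 3106, 898, 1523, 5845 and 185 CPM in WT 1 to WT 5. Krt10 stood at 3816 and 51.0 CPM in KI 1 and KI 2 and at 2302, 518, 878, 3799.9 and 80.6 CPM in WT 1 to WT 5. The highest WT library exceeded the lowest 31.6-fold for Krt1 and 47.2-fold for Krt10, against 3.64-fold for Krt5 and 3.17-fold for Krt14. KI 2 and WT 5, poor in epidermal markers, held the least of both genes, so the reads on Krt10 per read on Krt14 ran from 0.207 and 0.275 in WT 5 and KI 2 to 3.08 and 4.50 in WT 4 and KI 1. In whole-skin RNA, fewer cells of a type and less RNA per cell cannot be told apart. Among the smaller suprabasal members, Krt78 stood at 64.9 and 5.05 CPM in KI and 5.32 to 88.2 CPM in WT libraries, Krt80 at 31.7 and 4.63 against 5.92 to 21.2 CPM, and Krt77 at 3.06 and 0.245 against 0.564 to 5.24 CPM. Krt2, a keratin of late suprabasal cells, had at most 24 reads.

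The mix of classes followed this. Suprabasal keratins made up 64.9% and 13.3% of the keratin reads in KI 1 and KI 2, and 56.2%, 33.1%, 44.6%, 60.5% and 13.4% in WT 1 to WT 5. Basal keratins made up 22.7% and 58.6% in KI 1 and KI 2 and 28.0% to 63.6% in the WT libraries. KI 2 and WT 5, of different genotype, thus had nearly the same suprabasal share.

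**Figure D2:**
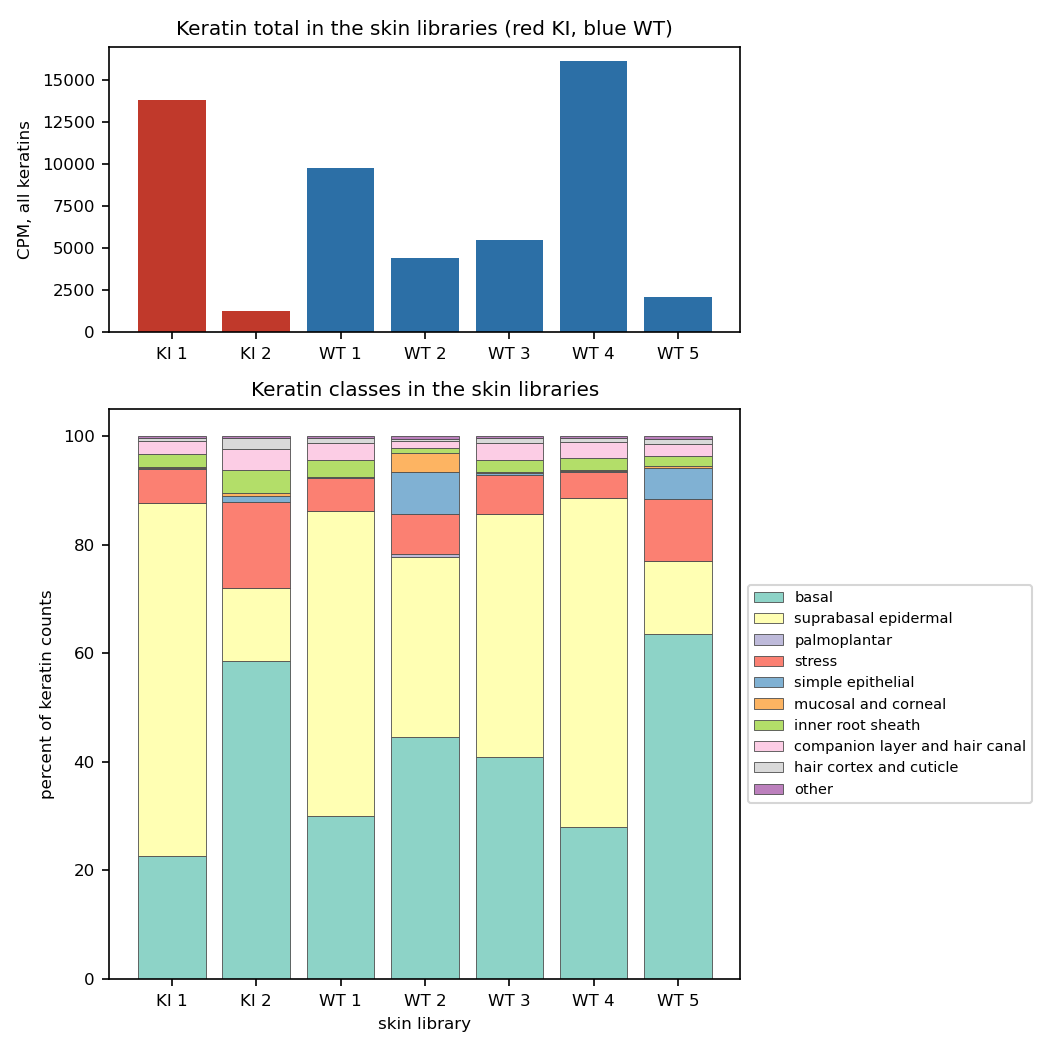
Upper bars, summed CPM of all keratins in each skin library; lower bars, the percent of the keratin reads in each class. The suprabasal share fell to 13.3% in KI 2 and 13.4% in WT 5, the libraries with the lowest totals, and simple epithelial keratins reached 7.72% in WT 2.

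Keratins of the hair follicle broadly ran with the epidermal markers. The 8 inner root sheath keratins summed to 326 and 51.4 CPM in KI 1 and KI 2, and to 295, 36.0, 127, 380 and 41.1 CPM in WT 1 to WT 5. Krt71, the type II keratin whose loss gives wavy coats, stood at 94.7 and 9.15 CPM in KI and at 8.08 to 94.6 CPM in WT libraries. Krt25, a type I partner in the sheath, stood at 75.4 and 11.5 against 8.31 to 96.4 CPM, Krt28 at 64.3 and 16.4 against 11.2 to 85.5 CPM, Krt73 at 56.8 and 10.1 against 5.59 to 69.1 CPM and Krt27 at 29.0 and 3.72 against 2.04 to 29.6 CPM. Krt26, Krt72 and Krt74 stayed at or below 4.29 CPM. WT 2 was the main exception, with fewer sheath reads than WT 3 although the 2 had the same Krt14 level within 2 CPM. The order of KI 2 and WT 5 also differed. KI 2 was lower in epidermal markers (296 against 476 CPM) and higher in the sheath sum (51.4 against 41.1 CPM).

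Krt79, which marks the hair canal, had the highest level per kb in WT skin among the inner root sheath, companion layer, hair canal and hair shaft keratins with a matched gene model, at 87.5 CPM per kb. It stood at 275 and 34.5 CPM in KI 1 and KI 2 and at 273, 48.7, 145, 413 and 37.6 CPM in WT 1 to WT 5. Krt75, the companion layer keratin, stood at 57.5 and 12.7 CPM in KI 1 and KI 2 and at 38.7, 9.55, 27.2, 46.2 and 8.21 CPM in WT 1 to WT 5. Of the 13 hair cortex and cuticle keratins, Krt35 (45.9 and 13.9 CPM in KI, 6.29 to 63.0 CPM in WT) and Krt85 (29.7 and 8.52 against 5.30 to 42.7 CPM), an early pair of the hair matrix, led. Krt36 (5.07 and 2.28 against 2.64 to 6.11 CPM), Krt32 (5.01 and 0.245 against 0.529 to 4.98 CPM) and Krt83 (2.27 and 0.596 against 0.493 to 2.15 CPM) followed, and the other 8 stayed under 1.6 CPM in every library. The late cortex and cuticle keratins Krt81, Krt86, Krt31 and Krt34 share 19.1% to 35.2% of their 75-base stretches with other genes, so their low values may be undercounts.

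WT 2 differed from the other skin libraries in the keratins of simple, mucosal and palmar epithelia. Krt8 stood at 3.09 and 1.89 CPM in KI 1 and KI 2 and at 2.68, 95.5, 3.07, 1.94 and 34.7 CPM in WT 1 to WT 5. Krt18 stood at 1.36 and 1.12 CPM in KI 1 and KI 2 and at 1.11, 34.5, 5.99, 1.62 and 52.1 CPM in WT 1 to WT 5. Krt19 stood at 3.72 and 1.96 CPM in KI 1 and KI 2 and at 3.17, 157, 2.41, 4.95 and 15.5 CPM in WT 1 to WT 5. WT 2 and WT 5 were high in all 3 genes, and the other 5 libraries were low. Krt7, a keratin of glands and ducts, stood at 8.92 and 7.05 CPM in KI and 7.59 to 49.2 CPM in WT libraries, and Krt20, known from gut epithelium and touch-sensing Merkel cells, at 2.27 and 1.19 against 0.388 to 4.73 CPM, both highest in WT 2.

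The mucosal pair Krt4 and Krt13 set WT 2 apart. Krt13 had 7, 5, 12, 2425, 8, 12 and 0 reads in KI 1, KI 2 and WT 1 to WT 5. Krt4 had 346, 187, 409, 2486, 307, 410 and 221 reads in the same order. Krt9, the keratin of palms and soles, had 1, 1, 2, 605, 0, 34 and 12 reads. The corneal keratin Krt12 was low throughout (1.36 and 0.175 against 0.388 to 7.10 CPM), and Krt76, a keratin of the oral mucosa, stayed at or below 2.09 CPM. Skeletal muscle markers, 6 genes, were also lowest in WT 2 (5349 CPM against 12036 to 23124 CPM in the other 6 libraries). WT 2 was highest in the sums of mesothelium markers (13.1 CPM against 1.94 to 5.78 CPM), choroid plexus markers (14.03 CPM against 1.26 to 4.39 CPM) and bile duct markers (219 CPM against at most 158 CPM), and the part of these cell types was not tested. In all, WT 2 was the highest library for 9 of the 44 tested members (Krt4, Krt6a, Krt7, Krt8, Krt9, Krt13, Krt19, Krt20 and Krt84), while KI 1 or WT 4 was highest for 32 and KI 2 or WT 5 lowest for 35. Among the remaining members, Krt23 followed the epidermal libraries (37.0 and 1.72 CPM in KI, 8.46 to 50.0 CPM in WT), as did Krt42 (7.37 and 1.05 against 2.89 to 9.49 CPM).

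Of the 4 stress keratins, Krt6b was the one in which the KI and WT skins did not overlap. It stood at 236 and 8.83 CPM in KI 1 and KI 2 and at 3.85, 7.70, 2.14, 5.42 and 1.62 CPM in WT 1 to WT 5. Both KI libraries lay above all 5 WT libraries, KI 1 by a wide margin and KI 2 narrowly, although KI 2 held the least epidermal RNA of all. Among the 16163 tested genes, 4.91% had both KI libraries above all WT libraries, and Krt6b was the only keratin of 44 to do so. None lay below all WT libraries, as 4.84% of genes did. Its log2 fold change of 4.88 had a standard error of 0.975 and was not called (edgeR adjusted p = 0.520). It was called by DESeq2 (adjusted p = 0.00951, with 96 genes called higher and 11 lower of 15135) and by edgeR when all 21 libraries shared 1 fit (adjusted p = 0.0379, with 22 genes called higher and 1 lower of 18062). Over all alternatives its adjusted p ran from 0.00951 to 1.00. Without KI 1 the log2 fold change was 1.13 and without KI 2 it was 5.82, so its size rests on KI 1.

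Krt16, the type I partner of the Krt6 proteins, stood at 97.1 and 8.62 CPM in KI 1 and KI 2 and at 9.24, 8.11, 7.48, 28.0 and 3.49 CPM in WT 1 to WT 5. KI 1 was above all WT libraries and KI 2 lay among them. Its log2 fold change of 2.23 had a standard error of 0.886, was not called (edgeR adjusted p = 0.999) and turned to -0.34 without KI 1. Krt6a, nearly identical in sequence to Krt6b, stood at 27.8 and 2.07 CPM in KI 1 and KI 2 and at 4.47, 45.7, 2.44, 5.33 and 1.09 CPM in WT 1 to WT 5. Here WT 2 was highest and the groups overlapped, with a log2 fold change of 0.34 that was -2.48 without KI 1 and 2.16 without WT 2. Krt17, the stress keratin that hair follicles also make, stood at 511 and 176 CPM in KI 1 and KI 2 and at 563, 263, 382, 732 and 230.1 CPM in WT 1 to WT 5. It ran with the basal keratins, and its log2 fold change was -0.34 (edgeR adjusted p = 0.999) and 0.23 without KI 2.

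**Figure D3:**
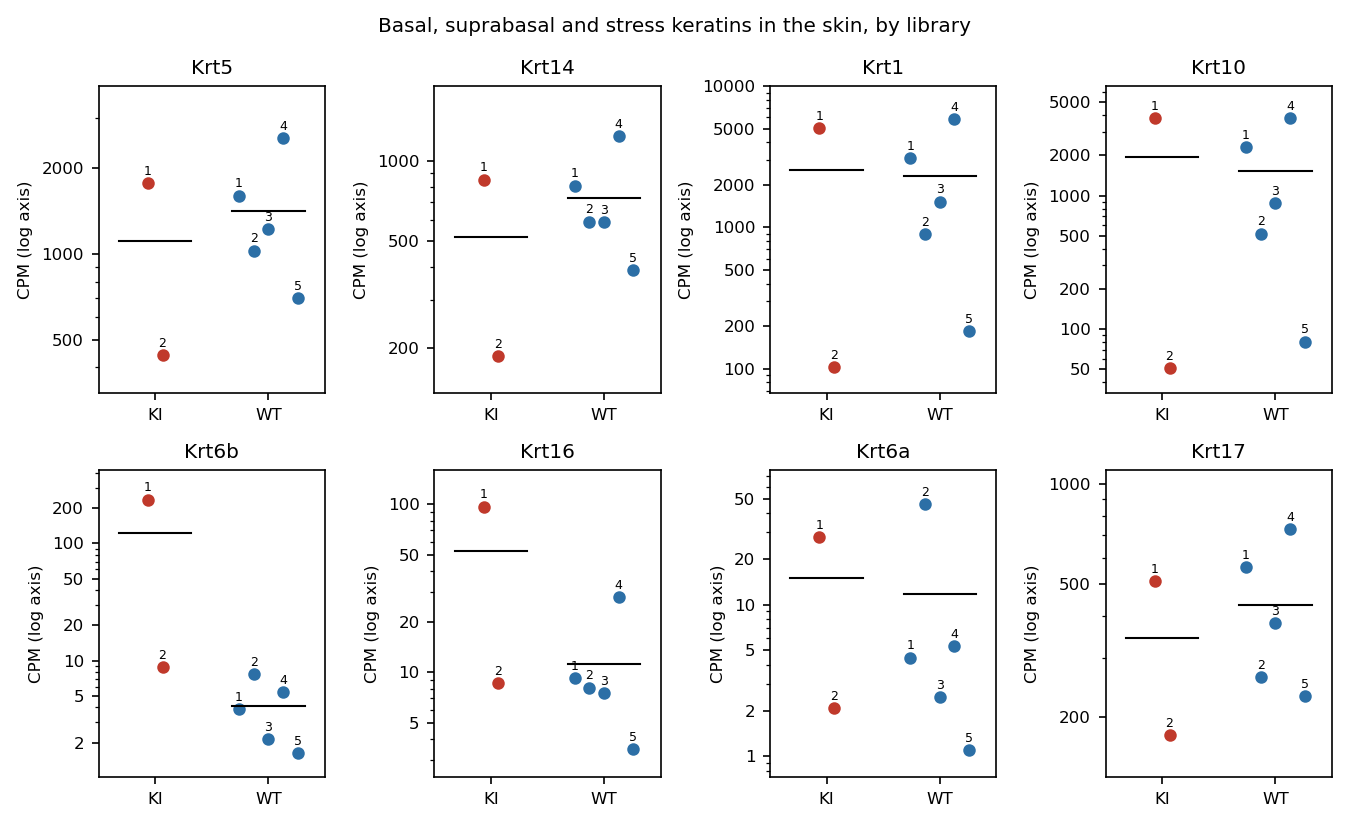
CPM of 8 keratins in each skin library on log axes, KI in red and WT in blue, with the replicate number at each point and a bar at the group mean. Krt6b was at 236 and 8.83 CPM in KI and at 1.62 to 7.70 CPM in WT, while the basal and suprabasal keratins overlapped between the genotypes.

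Since epidermal RNA differed between the libraries, the stress keratins were also set against Krt14 in the same library, a ratio chosen after the values had been seen. Per 1000 reads on Krt14, there were 278 and 47.7 reads on Krt6b in KI 1 and KI 2, against 4.78, 13.01, 3.63, 4.39 and 4.16 in WT 1 to WT 5. For Krt16 there were 114 and 46.6 reads in the KI libraries, against 11.5, 13.7, 12.7, 22.7 and 8.95 in the WT libraries. On this scale both KI skins, the epidermis-rich KI 1 and the epidermis-poor KI 2, lay above all WT skins in both genes. Krt6a (32.8 and 11.2 reads against 5.55, 77.2, 4.14, 4.32 and 2.80) did so except for WT 2, and Krt17 (602 and 952 against 444 to 698) did not. Against the suprabasal keratin Krt10 instead, Krt16 had 25.4 and 169 reads per 1000 in KI 1 and KI 2. The skins of WT 1 to WT 5 had 4.02, 15.7, 8.51, 7.38 and 43.3, so WT 5 lay above KI 1. The separation of the genotypes in Krt16 thus depended on the denominator.

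**Figure D4:**
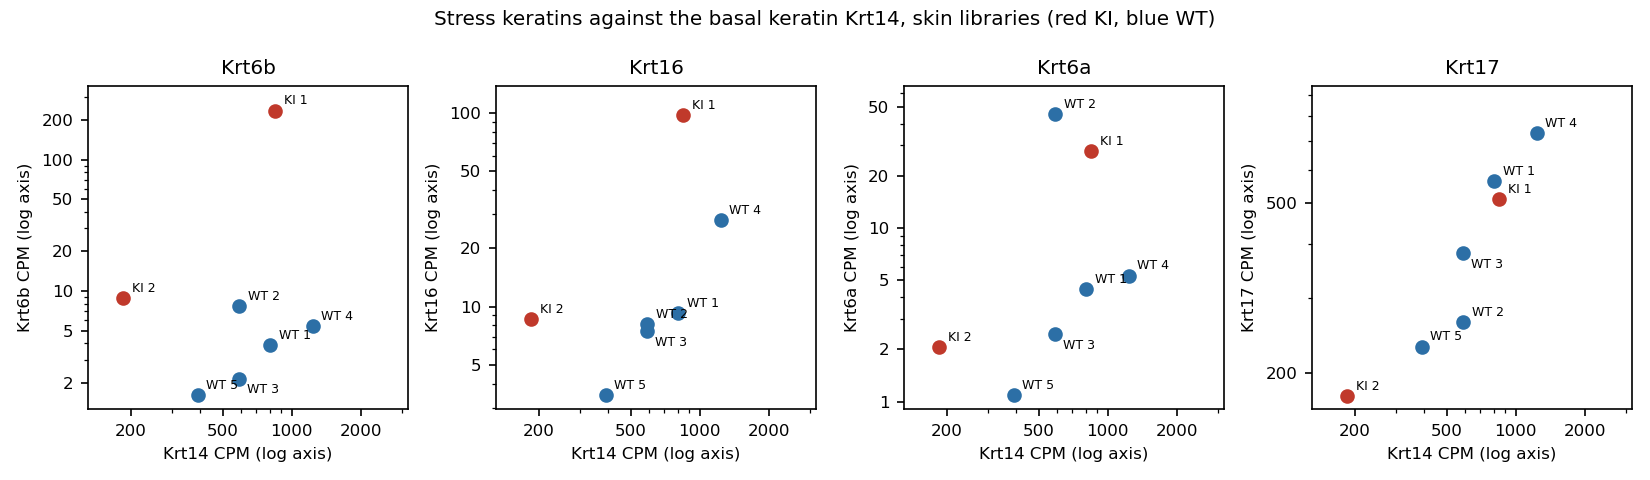
CPM of each stress keratin against CPM of the basal keratin Krt14 in the 7 skin libraries, both on log axes, KI in red and WT in blue. In Krt6b and Krt16 both KI libraries have more reads per read on Krt14 than any WT library, KI 2 at a Krt14 level (185 CPM) below all WT libraries, and Krt17 stays between 444 and 952 reads per 1000 on Krt14.

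Per read on Krt14, both KI libraries lay above all WT libraries in 9 of the 43 other tested keratins, against 1.69% of the 16162 other tested genes. Beside Krt6b and Krt16 these were Krt5, Krt75, Krt80, Krt31, Krt81, Krt83 and Krt86. The margins were small for Krt5 (2093 and 2389 reads per 1000 on Krt14 against 1739 to 2070) and Krt86 (0.966 and 0.946 against 0.0904 to 0.931). In KI 2 the hair keratins Krt31, Krt83, Krt81 and Krt86 had only 17, 17, 11 and 5 reads. Their place above all WT libraries therefore rests on few reads. Krt80 had 37.4 and 25.0 reads against 11.98 to 19.2, and Krt75 had 67.7 and 68.3 against 16.1 to 48.0. No keratin lay below all WT libraries on this scale (0.118% of genes did). Since all ratios share the Krt14 count as denominator, they are not independent of each other. A gene that does not follow Krt14 has a ratio set largely by the Krt14 level, 849 CPM in KI 1 and 185 CPM in KI 2. Such a gene can hardly lie on 1 side of all WT libraries in both. Without the ratio, 4.91% of genes lay above all WT libraries and 4.84% below. The shares over all genes on this scale are thus no like background for the keratins.

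The same question was put to the edgeR fit by adding the epidermal marker score as a covariate, an alternative chosen after seeing the data. The log2 fold change was then 2.41 for Krt16 (edgeR adjusted p = 0.109) and 4.39 for Krt6b (edgeR adjusted p = 0.246), and no keratin was called in either direction, as against 0.0371% of genes called higher and 0.00619% called lower. For Krt16 the estimate ran from 2.25 to 2.54 when each library was left out in turn. For Krt6b it ran from 2.16 without KI 1 to 5.496 without KI 2. Without WT 2, the library high in Krt6a, both Krt6b (log2 fold change 5.03) and Krt6a (2.30) were called (edgeR adjusted p = 0.0910 for each), beside 8 genes called higher, these 2 among them, and 1 lower of 15992. With each other library left out, no keratin was called.

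Across the family, no keratin was called between KI and WT skin. Of the 50 members, 44 passed the filter on low counts, and Krt2, Krt24, Krt39, Krt40, Krt76 and Krt82 did not. The background was low too, with 0.0247% of 16163 genes called, all higher in KI. At an unadjusted p under 0.05 edgeR marked 2 keratins, Krt6b and Krt16, both higher, and DESeq2 called 1. The 44 log2 fold changes had a median of 0.00, against -0.03 over all genes, and 22 were above 0. Both summaries rest on unlike KI libraries, KI 1 rich in keratins but within the WT range of the total, and KI 2 below it. Without KI 1 the median was -1.91 with 3 of 47 tested keratins above 0, and without KI 2 it was 0.64 with 34 of 48 above 0. The next smallest p belonged to Krt18 (log2 fold change -3.94, standard error 1.74), Krt9 (-6.81, standard error 3.36) and Krt8 (-3.47, standard error 1.83), none of them called (edgeR adjusted p = 0.999). Each of them was highest in WT 2 or WT 5, and the groups overlapped in Krt8 and Krt18, and in Krt9 through WT 3, which had no read. By class, all 3 basal keratins had log2 fold changes below 0 (-0.60 to -0.36) and 7 of 8 inner root sheath keratins had them above 0 (-0.01 to 0.91), and none was called. Neither direction held when a KI library was left out: the log2 difference in summed basal level was -1.73 without KI 1 and 0.39 without KI 2, and that of the inner root sheath was -1.18 and 1.49.

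In the liver, the keratins were those of simple epithelium. Krt18 stood at 153 and 173 CPM in KI 1 and KI 2 and at 122, 159, 137, 126 and 159.95 CPM in WT 1 to WT 5. Krt8, its partner, stood at 62.7 and 71.4 CPM in KI 1 and KI 2 and at 46.2, 70.7, 58.4, 49.8 and 74.8 CPM in WT 1 to WT 5. Krt20 stood at 27.4 and 47.3 CPM in KI 1 and KI 2 and at 31.3, 30.7, 28.6, 24.2 and 30.0 CPM in WT 1 to WT 5. Krt18 and Krt8 overlapped between the genotypes, and KI 2 was highest in Krt20 and KI 1 within the WT range. The pair Krt8 and Krt18 moved together, with 2.14 to 2.64 reads on Krt18 per read on Krt8 in the 7 livers. In the skin the same ratio ran from 0.361 to 1.95. The log2 fold changes in the liver were 0.21 for Krt18 (adjusted p = 0.434), 0.16 for Krt8 (adjusted p = 0.698) and 0.37 for Krt20 (adjusted p = 0.342), all from edgeR. Without KI 1 that of Krt20 was 0.73 and called (edgeR adjusted p = 0.0976), and without KI 2 it was -0.079, so it rests on KI 2.

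Krt23, a type I keratin, was the only member called in the liver. It had 409, 382, 550, 630, 519, 480 and 535 reads in KI 1, KI 2 and WT 1 to WT 5, that is 12.7 and 10.9 CPM in KI 1 and KI 2 and 15.9, 16.1, 17.7, 15.1 and 16.1 CPM in WT 1 to WT 5. Both KI livers lay below all WT livers, and the WT livers differed little among themselves (16.2 ± 0.958 CPM, SD, n = 5). Krt23 fell by 0.46 on the log2 scale (standard error 0.123, edgeR adjusted p = 0.0946). Of the 11 members tested, 1 was called. The background was wide, with 5.57% of 14966 genes called, 3.89% higher and 1.68% lower, and 11.3% of genes had both KI livers below all WT livers, so 1 of 11 does not stand out. The direction of Krt23 held in every alternative run, and the call was lost in most of them, among them without KI 1, KI 2, WT 1, WT 2, WT 3 or WT 5 (edgeR adjusted p = 0.133 to 0.490). Bile duct markers, 5 of 5 measured, summed to 55.8 and 56.2 CPM in the KI livers and 104 to 198 CPM in the WT livers, and the 5 erythroid markers, of which 2 were at 0 in both KI livers, to 1816 and 1804 against 2157 to 3002 CPM. Both separated the genotypes as Krt23 did, and their part in its value was not tested. Among the WT livers, bile duct markers summed to 104, 194, 112, 198 and 174 CPM in WT 1 to WT 5. Krt23 spanned only 15.1 to 17.7 CPM in the same livers.

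The bile duct keratins were low and uneven. Krt19 had 160, 103, 128, 410, 91, 356 and 270 reads and Krt7 127, 83, 75, 301, 79, 241 and 209 reads in KI 1, KI 2 and WT 1 to WT 5. WT 2, WT 4 and WT 5 were high in both genes, and the KI livers were level with WT 1 and WT 3. Their log2 fold changes were -0.89 (standard error 0.520) and -0.75 (standard error 0.521), and neither was called (edgeR adjusted p = 0.410 and 0.498). The same 3 WT livers had the highest sums of bile duct markers, at 194, 198 and 174 CPM, against 104 and 112 CPM in WT 1 and WT 3. The KI livers did not follow this order. Their sums were 55.8 and 56.2 CPM, below WT 1 and WT 3, whereas their Krt19 and Krt7 were level with those livers. The part of bile duct content in either gene was not tested. Krt80 stood at 0.560 and 2.05 CPM in KI and 0.502 to 1.05 CPM in WT livers (log2 fold change 0.85, standard error 0.5002, edgeR adjusted p = 0.418). Krt10 had a mean of 1.36 CPM in the WT livers, Krt14 and Krt222 had under 1 CPM, and 19 members were at 0 in all 7 livers.

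In the brain, the suprabasal epidermal pair and Krt222 led the family. Krt1 had 763, 643, 1057, 883, 809, 939 and 946 reads in KI 1, KI 2 and WT 1 to WT 5, and Krt10 had 363, 358, 863, 518, 583, 574 and 751 reads. The basal pair was nearly absent beside them: the KI and WT brains had 1 to 8 reads on Krt5 and 7 to 18 on Krt14. Per read on Krt5 there were 117 to 763 reads on Krt1 in the brain, against 0.231 to 2.83 in the skin. The ratio in every brain lay above that in every skin. Of the 9 epidermal markers that are not keratins, the cornified envelope gene Lor had 460 to 985 reads in each brain and Trp63, the basal epidermal factor, at most 0.48 CPM. All 9 summed to 32.4 and 31.5 CPM in the KI brains and to 27.9 to 67.1 CPM in the WT brains. The other markers are not listed here, so Lor and Trp63 do not stand for the whole list. In the gene models, an exon of Krt10 overlaps Gm11940 on the opposite strand and Krt1 overlaps no other gene, and the library kit named in the methods does not mark strand.

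Both genes had lower values in the KI brains than in every WT brain, without being called. Krt1 stood at 21.3 and 18.7 CPM in KI 1 and KI 2 and at 31.99, 28.6, 25.4, 27.9 and 37.7 CPM in WT 1 to WT 5. Krt10 stood at 10.1 and 10.4 CPM in KI 1 and KI 2 and at 26.1, 16.8, 18.3, 17.1 and 30.0 CPM in WT 1 to WT 5. The same held for Krt7 (0.446 and 0.464 against 0.566 to 1.197 CPM), so 3 of 22 tested keratins lay below all WT brains, and 15.8% of 16322 tested genes did so. The log2 fold change was -1.08 for Krt10 (standard error 0.287, edgeR adjusted p = 0.285) and -0.60 for Krt1 (standard error 0.191, edgeR adjusted p = 0.351), so neither was called. No gene at all was called in the brain (0.00%), while an unadjusted p under 0.05 was reached by 457 genes higher and 1275 lower in KI, among them 2 of the 22 keratins, both lower. DESeq2 called Krt10 (adjusted p = 0.0190), with 80 genes called higher and 524 lower of 14099. Without WT 5 edgeR called both Krt10 (log2 fold change -0.91, adjusted p = 0.0503) and Krt1 (-0.49, adjusted p = 0.0722), with 672 genes called higher and 1026 lower of 16222. Over all alternatives run both stayed below 0. The share of alignments tallied as matching more than 1 place was 18.0% and 17.1% in the KI brains and 20.5% to 24.0% in the WT brains, and neuron markers summed to 5706 and 5157 CPM against 5819 to 7575 CPM. Both separate the genotypes as Krt1 and Krt10 do, and their part was not tested.

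Krt222, a keratin-like gene that lacks part of the usual rod, stood at 20.7 and 18.0 CPM in KI 1 and KI 2 and at 25.5, 27.6, 29.2, 21.04 and 8.70 CPM in WT 1 to WT 5. WT 5 was lowest and the KI brains lay within the WT range. Krt19 (3.63 and 3.31 against 0.605 to 8.22 CPM), Krt18 (2.45 and 3.28 against 0.817 to 6.26 CPM) and Krt8 (0.530 and 1.10 against 0 to 1.197 CPM) were low. In the WT brains Krt18 and Krt8 were lowest in WT 1 and WT 2 and highest in WT 5. So was the sum of 6 choroid plexus markers (56.8 and 75.8 CPM in WT 1 and WT 2, 2627 CPM in WT 5). Ttr is on both this list and the hepatocyte list, whose sum was 37.9, 34.7 and 2557 CPM in the same brains. The choroid plexus sum may thus rest largely on Ttr, and the part of this cell type was not tested. The inner root sheath keratins Krt25 (0.920 and 0.987 against 0.918 to 2.03 CPM), Krt73 (1.12 and 1.28 against 0.357 to 2.48 CPM) and Krt71 (0.390 and 0.784 against 0.279 to 1.27 CPM) and the suprabasal Krt77 (0.976 and 0.929 against 0.648 to 1.73 CPM) had 7 to 82 reads. Krt26 (log2 fold change -1.09) and Krt25 (-0.59) followed Krt7 in order of p (edgeR adjusted p = 0.610 and 0.653). The 22 tested keratins had a median log2 fold change of -0.33, against -0.02 over all genes, and 6 of 22 were above 0.

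**Figure D5:**
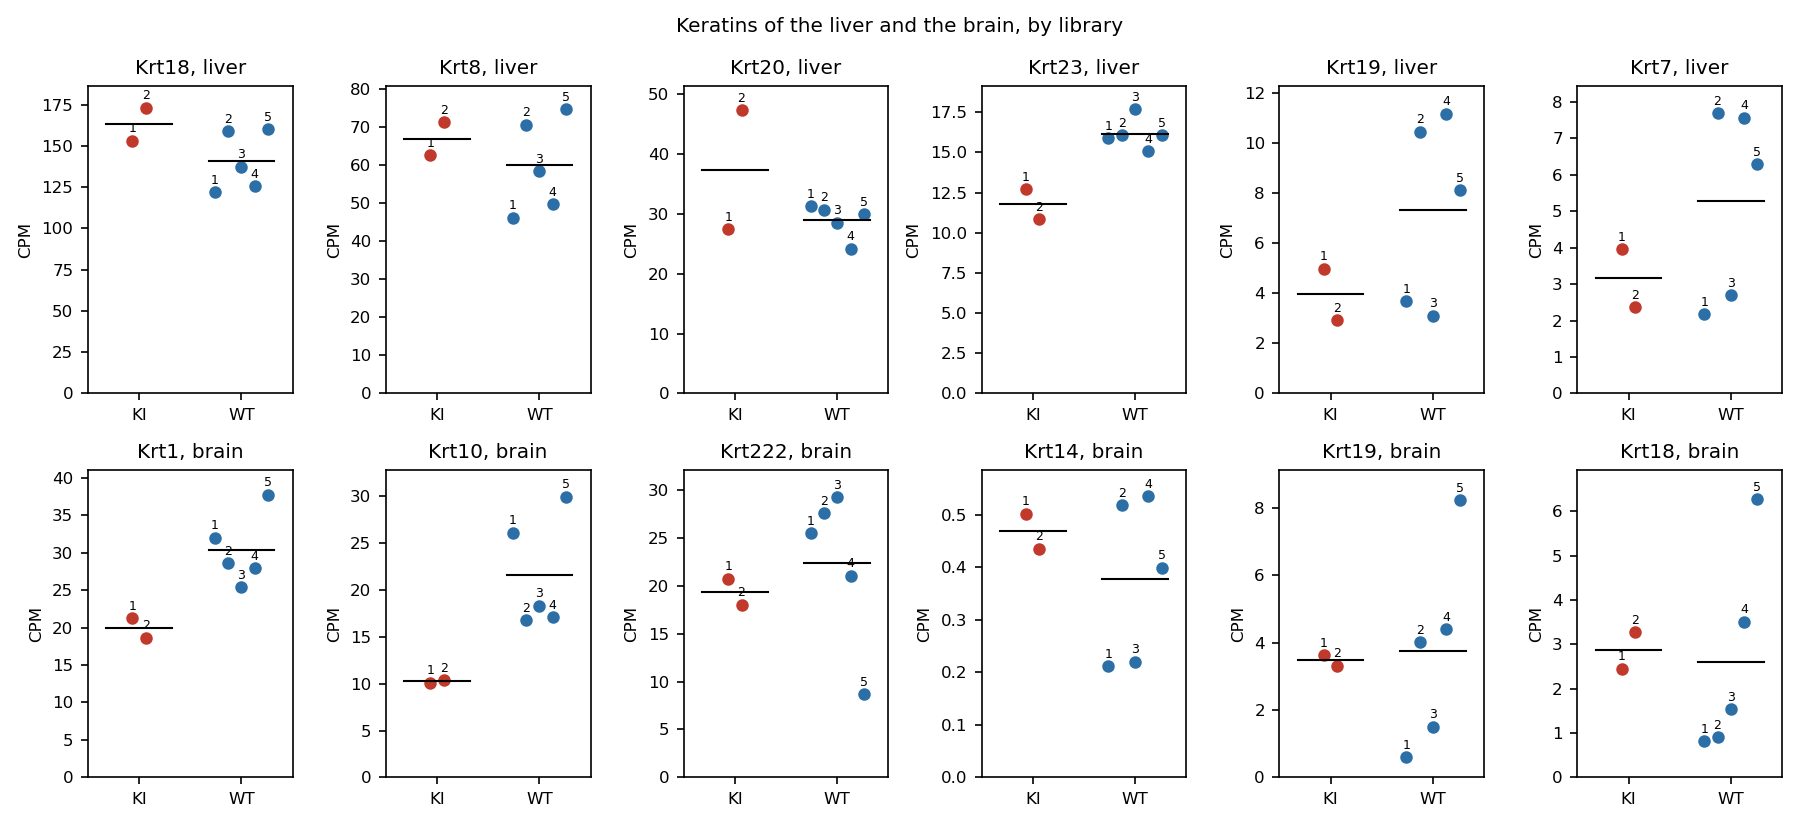
CPM of 6 keratins in each liver (upper row) and 6 in each brain (lower row), KI in red and WT in blue, with the replicate number at each point and a bar at the group mean. Krt23 in the liver and Krt1 and Krt10 in the brain have both KI libraries below the 5 WT libraries, and the other panels overlap.

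The tissues differed in most of the family. Between WT skin and WT liver, 34 keratins were tested, of which 28 were higher in skin and 2 lower, against 77.9% of all genes called, 41.3% higher and 36.6% lower. The 2 lower ones were Krt20 (log2 fold change -5.03, standard error 0.628) and Krt18 (-3.57, standard error 0.914). Krt8 was at -1.81 (edgeR adjusted p = 0.104) and Krt23 at -0.09, and neither was called. Between WT skin and WT brain, 34 of 36 tested keratins were higher in skin and 1, Krt222, was lower (-4.60, standard error 0.502), against 78.6% of all genes called, 39.0% higher and 39.6% lower. Krt1 was higher in skin by 6.36 and Krt10 by 6.24 on the log2 scale (standard errors 0.809 and 0.891), less than Krt5 (13.42, standard error 0.533) and Krt14 (10.99, standard error 0.468). Between WT liver and WT brain, 8 of 17 tested keratins were higher in the liver, among them Krt8 (8.06), Krt20 (7.91), Krt23 (6.90) and Krt18 (6.53), and 8 were higher in the brain, led by Krt1 and including Krt222 and Krt10 (-5.55 and -3.24), against 84.5% of all genes called, 39.9% higher and 44.6% lower.

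The KI effect itself was compared between tissues in 1 fit of all 21 libraries, with 45 keratins tested. The fit held no term for the mouse, although the tissues came from the same mice. None differed between skin and liver, skin and brain or liver and brain at an adjusted p under 0.1 from edgeR. Of 18062 genes, 0.0997% differed between skin and liver (0.0332% with the higher effect in skin and 0.0664% with the lower), 0.00% between skin and brain, and 2.81% between liver and brain (1.77% and 1.05%). At an unadjusted p under 0.05 the first comparison marked 3 keratins (Krt18, Krt8 and Krt75), the second 3 (Krt18, Krt8 and Krt9) and the third 1 (Krt75).

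The genes that anchor and regulate keratins were followed from lists. Of 20 desmosome and hemidesmosome genes, all 20 were tested in the skin, 14 in the liver and 15 in the brain, and none was called between KI and WT. Their median log2 fold change was -0.09 in the skin, -0.17 in the liver and 0.34 in the brain. In the brain the smallest p belonged to Jup, plakoglobin, with a log2 fold change of 0.51, Dsp, desmoplakin, with 1.52 and Dsc3, desmocollin 3, with 0.66 (edgeR adjusted p = 0.351, 0.389 and 0.449). Of 14 transcription factors of epidermis and hair, 14 were tested in the skin, 8 in the liver and 11 in the brain, and of 15 other intermediate filament genes 15, 12 and 15, and none of those tested was called. The factors with the smallest p were Klf4 in the skin (log2 fold change 0.65, edgeR adjusted p = 0.999) and Ovol1 in the liver (1.28, edgeR adjusted p = 0.148). Among the filaments they were Bfsp2 in the skin (-1.98) and Gfap in the liver (-0.50, edgeR adjusted p = 0.201).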

How the data were processed

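RNA of brain, liver and skin from newborn mice was sequenced as paired-end reads, 2 KI and 5 WT libraries per tissue. Per the labels and the study's methods, the authors trimmed the reads, aligned them to mm9 with TopHat2 and counted them per gene with HTSeq. The authors deposited raw counts per gene symbol, not normalized. Summary lines that name no gene were left out of library sizes and tests: alignments to more than 1 place made up 17.1% to 25.4% of all those tallied, and those on no gene 7.82% to 14.6%. Counting strand and annotation are not given in the sources used here.

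KI and WT libraries were compared within each tissue with edgeR 4.0.16 in R 4.3.3 (TMM, filterByExpr, quasi-likelihood test, Benjamini-Hochberg adjustment over all tested genes, called under 0.1). WT tissues were compared in the same way, and the KI effect between tissues by interaction terms in 1 fit of 21 libraries. The standard error is the log2 fold change divided by the square root of F. The libraries of a tissue came from separate mice, per the study's methods, and p-values measure the spread between them. The methods name 2 KI and 5 WT mice in all, so the 3 tissues came from the same mice. The main comparisons between tissues treated all libraries as independent, since the labels do not say which of them share a mouse. Keratins, classes, lists and markers were chosen with earlier results of these data known, and the lists were written from general knowledge. Keratins named were those over 1 CPM in the skin, the 10 highest in liver and brain, and those called or with the smallest p in each comparison. Alternatives were the size factors of DESeq2 1.42.0, its Wald test, no filter, a fit of all 21 libraries, a block for the replicate number, a threshold of 0.05, each library left out and, for summed levels, other scalings; the epidermal covariate, the mean log2 CPM of 9 markers with a prior count of 2, was chosen with the values already seen. The edgeR fit without covariates was first run on simulated counts for KI against WT in each tissue. It was also run for WT skin against WT liver and for the KI effect in skin against that in liver. The other fits were not simulated. Coding sequences came from NCBIM37 with GENCODE vM1 and were aligned with Biopython 1.88; figures used matplotlib 3.10.9.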

Additional observations from a re-analysis of the deposited data

Results flagged for a closer look

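Among the 5 WT libraries of a tissue, 1 library stood far from the other 4 in 8 of 51 groups tested. The rule used marks about 1 in 20 groups of independent, normally distributed values. CPM values of related genes in the same 5 libraries are not such values, so the count is not set against that rate. The share over all genes was not computed. Of the 8, 7 were WT 2 in the skin, so they are not separate events. Krt13 was at 77.5 CPM there and at no more than 0.392 CPM in the other WT skins, Krt4 at 79.4 CPM against at most 13.4 CPM, and Krt19 at 157 CPM against at most 15.5 CPM. Krt7 was at 49.2 CPM against at most 18.0 CPM, Krt6a at 45.7 CPM against at most 5.33 CPM, Krt9 at 19.3 CPM against at most 1.00 CPM, and Krt20 at 4.73 CPM against at most 0.804 CPM. The eighth was Krt16 in skin WT 4, at 28.0 CPM against 3.49 to 9.24 CPM. WT 4 was also the WT skin with the highest Krt14 level.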

How the results depend on the processing

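The count of keratins called between KI and WT skin was 0, and it was 1 with DESeq2 and with all 21 libraries in 1 fit, and 2 with the epidermal covariate without WT 2. In the brain it was 0, and 1 with DESeq2, and leaving out each library gave 0 to 2. In the liver it was 1, and 0 at a threshold of 0.05 and with all 21 libraries, and leaving out each library gave 0 to 1. With no filter, 28 keratins instead of 16 were called between WT liver and WT brain. The log2 difference between KI and WT skins in summed keratin level was -0.55 and ran from -2.29 to 1.19 with each library left out. Of the 8 keratin differences recomputed by name under every alternative, 4 turned sign in at least 1, and across the family the tested keratins above 0 in the skin went from 22 of 44 to 3 of 47 without KI 1 and 34 of 48 without KI 2. Krt16 in the skin, 2.23, ran from -0.34 to 3.10 with each library left out. Krt6a, 0.34, ran from -2.48 to 2.16, and with the epidermal covariate it was -0.050, and -3.67 to 2.30 with that and each library left out (-0.32 without WT 1, WT 3 or WT 4 and -0.20 without WT 5). DESeq2 gave Krt6a no adjusted p. Krt17, -0.34, ran from -1.25 to 0.23, and with the covariate it was 0.33 without KI 1, 0.016 without WT 1, 0.035 without WT 4 and 0.038 without WT 5. Krt20 in the liver, 0.37, ran from -0.079 to 0.73.

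KI and WT libraries share replicate numbers 1 and 2, and nothing in the labels says what a number marks. After the group means were removed, same-numbered libraries correlated across genes with r = 0.0217 and -0.0952 in the brain, -0.0269 and -0.0932 in the liver and 0.198 and 0.0363 in the skin. The numbers are therefore not taken as pairs. With the replicate number as a block, 4 of 22 keratins were called in the brain, 2 higher and 2 lower, among 783 genes called higher and 1382 lower of 16322. Krt10 and Krt1 were the lower ones (edgeR adjusted p = 0.0407 and 0.0400). The block gave 0 calls of keratins in the liver and skin, where Krt6b was at 3.07 and Krt6a at -0.85. For WT libraries the r of same-numbered tissues ran from 0.00122 to 0.242, and the block gave counts within 1.5 times those without it. Apart from the unfiltered fit of WT liver against WT brain, no other alternative changed a count of called keratins by over 1.5 times here. This covers the tissue contrasts and the comparisons of the KI effect between tissues. Krt6a, Krt6b and the late hair keratins are limited by shared sequence, KI comparisons by 2 mice.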
